A study of Mus musculus with 4 samples.

Results

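The Hox cluster genes were described in primary tumours (PTs) and lungs of mice carrying 4T1 breast cancer. The members are all genes whose symbol is Hox, a cluster letter from a to d and a paralogue number, which selected 39 of the 19465 genes of the probe panel. They comprise 11 Hoxa, 10 Hoxb, 9 Hoxc and 9 Hoxd genes. Fixed sections of PT and lung were put through the 10x Visium probe assay for paraffin-embedded tissue, 2 of each, 1 from each of mice A and B. Both were BALB/c mice given 100000 4T1 cells in PBS in the mammary fat pad at 8 weeks of age, and tissues were taken after 28 days. 4T1 is 1 established triple-negative mouse mammary carcinoma line, syngeneic to BALB/c. No section came from a mouse without 4T1 cells, so the organ and the presence of tumour cannot be told apart between the groups.

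Hox genes code for homeodomain transcription factors that give cells their position along the body axis. They lie in clusters whose order along the chromosome follows the order of their expression from head to tail, so low paralogue numbers are called anterior and high ones posterior. Adult mesenchyme keeps much of this pattern, and the lung is known for anterior and central Hoxa and Hoxb genes, with Hoxa5 needed for airway and alveolar development. Here paralogues 1 to 4 are called anterior (12 genes), 5 to 8 central (11 genes) and 9 to 13 posterior (16 genes). In the GENCODE M21 annotation of GRCm38 the members lie on chromosome 6 (Hoxa), chr11:96194316-96368256 (Hoxb), chr15:102921103-103036852 (Hoxc) and chr2:74668310-74765142 (Hoxd). All 39 gene identifiers were found there. Of these genes, 11 overlap another Hox gene on the same strand (Hoxa3 with Hoxa4, Hoxa5 and Hoxa6, Hoxc5 with Hoxc6, Hoxc8, Hoxc9 and Hoxc10, and Hoxd3 with Hoxd4). Probe positions are not given in the sources used here, so it is uncertain how UMIs (unique molecular identifiers, the molecules counted) divide between these overlapping genes.

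RefSeq promoter sequences on GRCm38.p6 were at hand for 22 of the 39 genes. The 250 bases before the start are shown for the member with the highest mean level (Hoxa5, not corrected for probes per gene). They are also shown for a gene with the paired Hox and cofactor letters described next (Hoxa2), and for the members on which the comparison of lung and PT turned (Hoxa10 and Hoxd8). Capitals mark, on either strand, the HOX-PBX letters TGATTNAT, the MEIS letters TGACAG, the TATA box TATAAA and the CCAAT box CCAAT, none of which overlapped in the sequences shown.
Hoxa2 (chr6:52164832-52165081, minus strand): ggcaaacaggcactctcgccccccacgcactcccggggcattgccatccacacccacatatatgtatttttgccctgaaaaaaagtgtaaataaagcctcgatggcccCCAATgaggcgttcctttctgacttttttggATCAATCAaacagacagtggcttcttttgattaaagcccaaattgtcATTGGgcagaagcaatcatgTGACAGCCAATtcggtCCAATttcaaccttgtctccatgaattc
Hoxa5 (chr6:52204588-52204837, minus strand): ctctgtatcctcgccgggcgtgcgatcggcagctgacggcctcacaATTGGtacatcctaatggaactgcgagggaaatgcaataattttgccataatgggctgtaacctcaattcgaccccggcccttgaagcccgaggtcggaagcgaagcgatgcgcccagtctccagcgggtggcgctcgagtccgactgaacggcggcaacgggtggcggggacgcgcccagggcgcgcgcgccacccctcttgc
Hoxa10 (chr6:52234940-52235189, minus strand, before a start inside the gene): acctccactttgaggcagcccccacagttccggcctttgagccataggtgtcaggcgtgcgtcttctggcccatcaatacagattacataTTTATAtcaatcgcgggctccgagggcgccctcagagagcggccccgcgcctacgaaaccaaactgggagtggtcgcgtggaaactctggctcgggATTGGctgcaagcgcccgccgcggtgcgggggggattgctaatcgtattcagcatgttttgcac
Hoxd8 (chr2:74704365-74704614, plus strand): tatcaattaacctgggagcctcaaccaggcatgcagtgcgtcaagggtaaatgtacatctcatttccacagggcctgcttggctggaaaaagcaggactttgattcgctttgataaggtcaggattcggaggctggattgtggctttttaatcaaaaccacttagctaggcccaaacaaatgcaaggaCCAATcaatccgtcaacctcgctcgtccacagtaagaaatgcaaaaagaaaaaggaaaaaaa
The HOX-PBX letters stood in 2 of the 24 Hox promoters, those of Hoxa2 and Hoxd11, and in 2.82% of all 32851 promoters of the same length. The MEIS letters stood in 2 Hox promoters (Hoxa2 and Hoxa3) and in 15.9% of all. The TATA letters stood in 4 (Hoxa10, Hoxb8, Hoxd4 and Hoxd13) and in 12.4% of all, and the CCAAT letters in 14 and in 33.8% of all. These are matches of letters and were not tested as binding sites.

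Each section was summed over the spots with over 200 genes, 9339 of 9445 spots under tissue, and levels are given as CPM (UMIs of the gene per 1000000 UMIs of the section or spot class). The sums held 13532158 (PT A), 11122812 (lung A), 10890154 (PT B) and 30240176 UMIs (lung B). The 6 alveolar markers in the panel summed to 17.2 and 47.6 CPM in PTs A and B and to 12633 and 7105 CPM in lungs A and B, so they marked the sections labelled lung. The 5 4T1 markers (Csf3, Mmp3, Mmp13, Plau and Hmga2) summed to 4354 and 5043 CPM in the PTs, and to 95.3 CPM in lung A against 1113 CPM in lung B. The 5 mammary epithelial markers summed to 215 and 426 CPM in the PTs (2 and 1 of 5 above the receptor background described next) and to 127 and 249 CPM in the lungs (3 of 5 in each), with the defining milk genes Csn2 and Wap at background in every section. A spot can hold several cells, and fewer cells of a type and less RNA per cell cannot be told apart in these sums. Spots of a section are not replicates, and 1458 to 2030 barcodes recur between any pair of sections because the capture areas carry the same barcode set.

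Low counts needed a yardstick, for which 1213 olfactory, vomeronasal and taste receptor genes were taken, genes not known to be active in these tissues. A Hox gene was called above background where its UMIs exceeded the 95th percentile of the receptor genes of that section (23, 6.4, 203.4 and 12 UMIs in PT A, lung A, PT B and lung B). PT B stood apart with a mean of 85.2 UMIs per receptor gene, against 9.95 in PT A, 2.52 in lung A and 5.11 in lung B. By this measure 17 Hox genes were above background in PT A, 13 in lung A, 4 in PT B and 19 in lung B. Hoxa2, Hoxa3, Hoxa5 and Hoxa10 were above it in all 4 sections, and 18 of the 39 genes were above it in none. At the 99th percentile Hoxa3 was no longer above background in PT B.

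**Figure D1:**
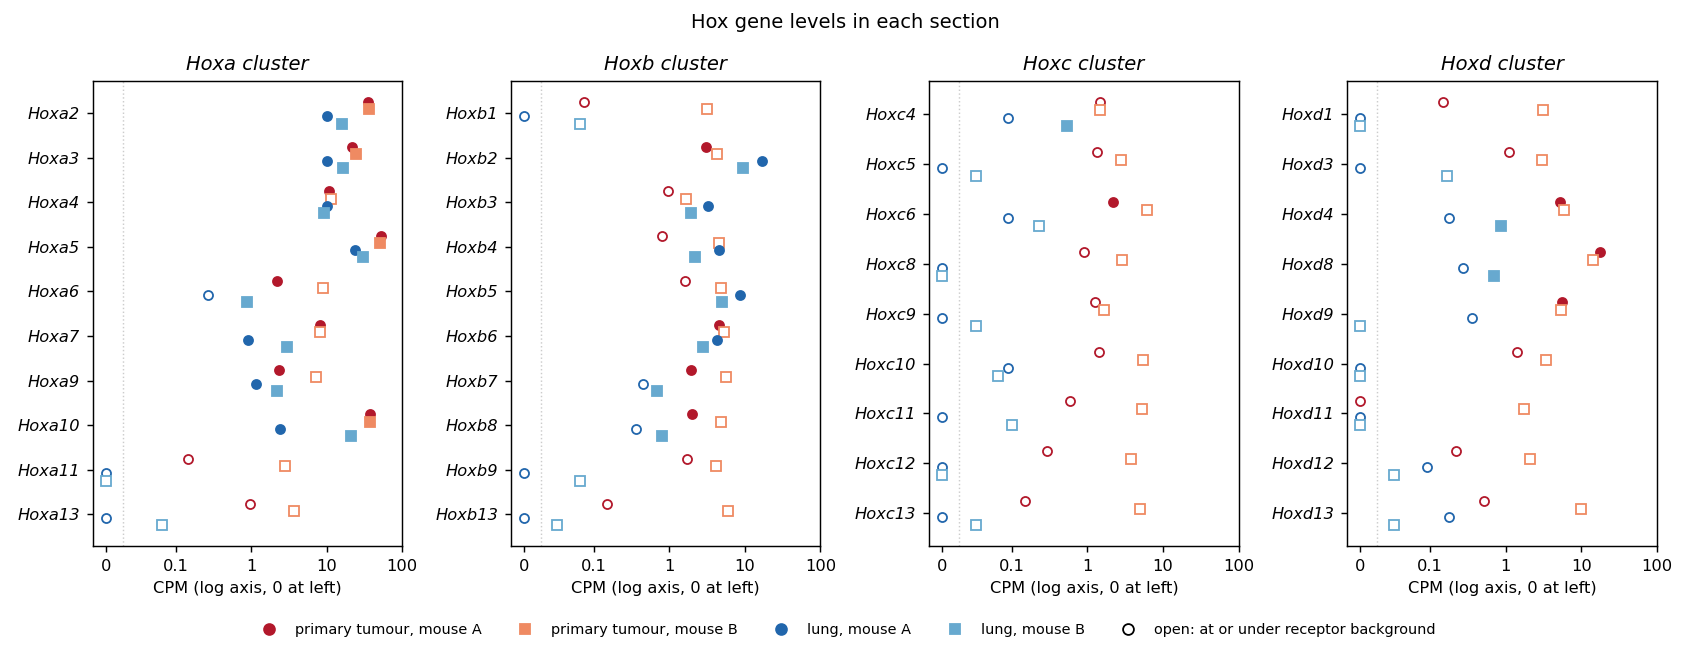
Level of 38 Hox genes in CPM (log axis, 0 drawn at the left edge) in the 4 sections, by cluster. Filled points exceed the receptor background of their section and open points do not; in PT B only Hoxa2, Hoxa3, Hoxa5 and Hoxa10 are filled.

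The background of PT B hardly changed with spot depth when counted per spot. In its 4 quartiles of spots from shallow to deep, receptor genes together gave 41.5, 49.0, 44.9 and 38.8 UMIs per spot. The 4 Hox genes above background in all sections gave 0.214, 0.302, 0.359 and 1.86 UMIs per spot there. The other 35 Hox genes gave 0.683, 0.836, 0.695 and 1.09 UMIs per spot. As shares of the UMIs of each quartile, these were 34970, 31059, 19251 and 2925 CPM of receptor genes, 180, 191, 154 and 140 CPM of the 4 Hox genes and 575, 531, 298 and 82.4 CPM of the other 35. The receptor genes and the 35 thus held a far larger share in shallow spots, and the share of the 4 was lowest in the deepest spots. In PT A the same 35 genes went from 0.0465 to 1.20 UMIs per spot between the shallowest and the deepest quartile (123 to 82.7 CPM). The receptor share fell with depth in the other sections too, from 6033 to 344 CPM in PT A, 489 to 209 CPM in lung A and 551 to 112 CPM in lung B. In the deepest quartile alone, 28 Hox genes were above background in PT A and 7 in PT B, namely Hoxa2, Hoxa3, Hoxa4, Hoxa5, Hoxa7, Hoxa10 and Hoxd8. The lungs had 13 (mouse A) and 19 (mouse B) there, the same numbers as over the whole sections.

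**Figure D2:**
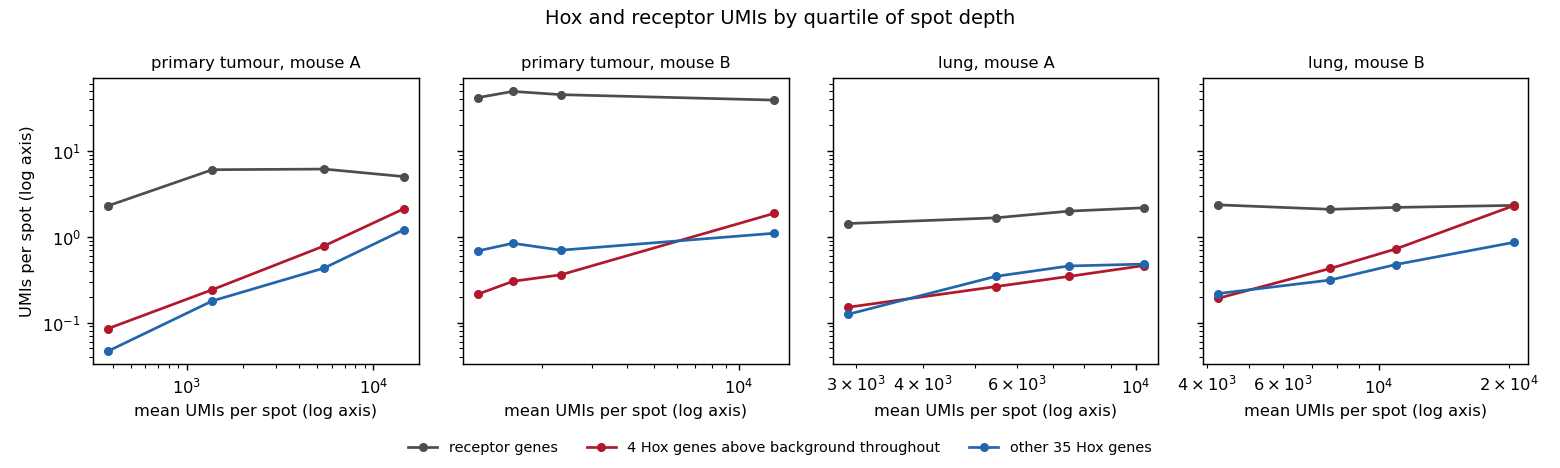
UMIs per spot (log axis) of the receptor genes, of the 4 Hox genes above background in all sections and of the other 35 Hox genes, against the mean UMIs per spot (log axis) in the 4 quartiles of spot depth of each section. The receptor line of PT B lies between 38.8 and 49.0 UMIs per spot, above those of the other sections.

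All Hox genes together reached 233 CPM in PT A and 329 CPM in PT B, against 99.9 CPM in lung A and 126 CPM in lung B. Anterior genes were the nearest to equal, at 83.4 and 109 CPM in PTs A and B and 56.6 and 58.4 CPM in lungs A and B. Central genes had 95.4 and 115 CPM in the PTs and 39.0 and 43.9 CPM in the lungs. Posterior genes had 54.6 and 105 CPM in the PTs and 4.32 and 23.7 CPM in the lungs, which is 12.7-fold and 4.43-fold higher in the PT within mice A and B. Most posterior UMIs belonged to Hoxa10 in PT A (513 of 739), lung A (27 of 48) and lung B (637 of 718), but not in PT B (411 of 1146). Taking off the mean receptor level for each gene left all Hox genes at 210 and 95.1 CPM in PT and lung of mouse A, and at 134 and 122 CPM in mouse B. In mouse B anterior genes then turned, with 50.5 CPM in the PT against 56.6 in the lung, and posterior genes had 32.1 against 22.9 CPM.

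By cluster, Hoxc genes had 129 and 374 UMIs in PTs A and B and 3 and 31 in lungs A and B, 35.3-fold and 33.5-fold lower in the lung by CPM. Hoxd genes had 435 and 534 UMIs in the PTs and 12 and 54 in the lungs, 29.8-fold and 27.5-fold lower. Before background was taken off, Hoxb genes went in opposite directions in the 2 mice, with 16.9 CPM in PT A against 38.7 in lung A, and 44.1 CPM in PT B against 23.0 in lung B. In PT B no Hoxb, Hoxc or Hoxd gene was above background over the whole section, and in its deepest quartile of spots Hoxd8 was. Taking off the mean receptor level of each gene, with 0 as the lowest value, left Hoxb at 10.8 CPM in PT A against 37.1 in lung A and at 0.0 CPM in PT B against 21.7 in lung B, higher in the lung in both mice. Hoxc was left at 4.09 against 0.0 CPM (mouse A) and 0.0 against 0.42 CPM (mouse B). Hoxd was left at 27.6 against 0.18 CPM (mouse A) and 8.78 against 1.22 CPM (mouse B).

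**Figure D3:**
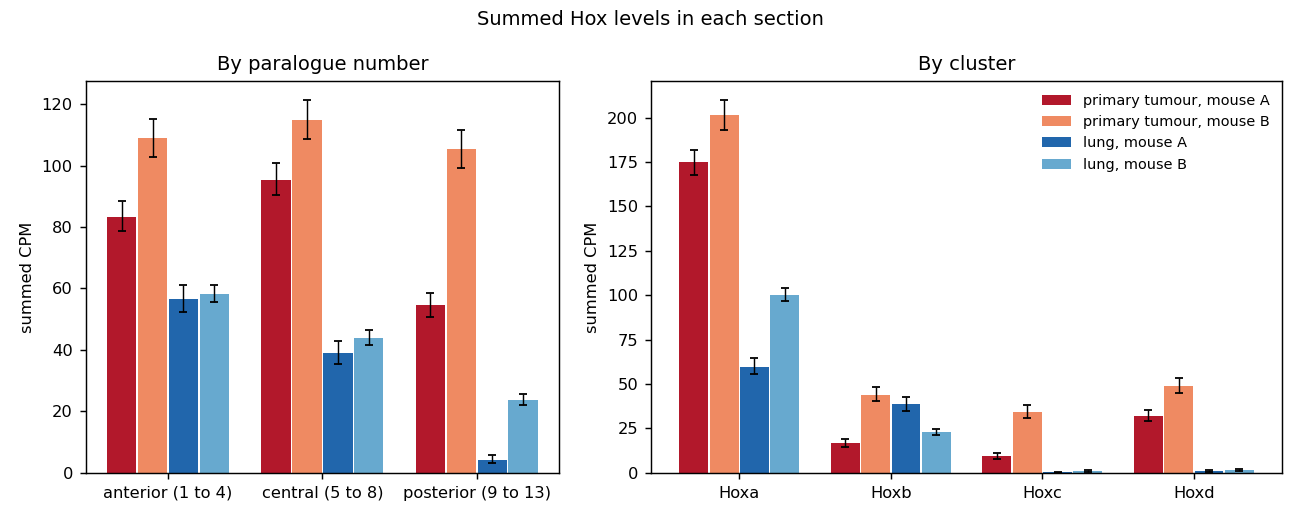
Summed CPM of the Hox genes by paralogue number (left) and by cluster (right) in the 4 sections, with 95% exact Poisson intervals that cover counting error only. Posterior genes reach 54.6 and 105 CPM in the PTs and 4.32 and 23.7 CPM in the lungs.

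For the question of which genes differ between the organs, edgeR's quasi-likelihood test was run on the 4 section sums over 15267 genes. Of 39 Hox genes, 29 passed the filter on low counts and 1, Hoxd8, was called, lower in the lung, at a Benjamini-Hochberg adjusted p under 0.05. Across all genes 7.46% were called, 6.31% higher and 1.15% lower in the lung, and 23.2% were under an unadjusted p of 0.05. The median log2 fold change (lung minus PT) was -2.24 over the 29 Hox genes and 0.00 over all genes tested. The Hox median was -0.56 over the 15 Hox genes tested with receptor background subtracted, -1.13 over 19 in the deepest quartile of spots and -3.93 over 39 with no filter. In the fit with the filter and no subtraction it was -0.85 over 10 anterior, -2.41 over 11 central and -5.19 over 8 posterior genes. These medians include genes with 0 UMIs in a lung, whose fitted fold depends on the prior count, and genes that passed the filter through the PTs. The 10 genes not tested (Hoxa11, Hoxb1, Hoxb13, Hoxc11, Hoxc12, Hoxc13, Hoxd1, Hoxd11, Hoxd12 and Hoxd13) had at most 3 UMIs in either lung, 0 to 8 UMIs in PT A and 19 to 109 UMIs in PT B.

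Hoxd8, a central gene of the Hoxd cluster, had 18.0 CPM (243 UMIs) in PT A and 14.4 CPM (157 UMIs) in PT B. It had 0.270 CPM (3 UMIs) in lung A and 0.694 CPM (21 UMIs) in lung B. Both PTs lay above both lungs, and the 157 UMIs of PT B were under its cut-off of 203.4. In the deepest quartile of PT B, Hoxd8 was above background, with 83 UMIs against a cut-off of 47.4 (10.5 CPM against a receptor mean of 2.41 CPM). The log2 fold change was -4.75 (SE 0.87, edgeR adjusted p = 0.0141), and -4.82 with the mouse as a block (edgeR adjusted p = 0.00337). The call was lost when the mean receptor level was taken off each section (-5.40, SE 1.65, edgeR adjusted p = 0.134) and in the deepest quartile of spots (-5.65, SE 0.82, edgeR adjusted p = 0.320), where 0 of 13406 genes were called. Over the 12 alternative settings the log2 fold change of Hoxd8 lay between -5.65 and -4.22 and its adjusted p between 3.53e-07 and 0.320.

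Hoxa10, a posterior gene known from uterus and limb, had 37.9 CPM (513 UMIs) in PT A and 37.7 CPM (411 UMIs) in PT B. The lungs had 2.43 CPM (27 UMIs, mouse A) and 21.1 CPM (637 UMIs, mouse B). The groups did not overlap, but the lungs differed from each other more than the PTs did. The log2 fold change was -1.48 (SE 0.72, edgeR adjusted p = 0.251). With the mouse as a block it was -2.04 (SE 0.60, edgeR adjusted p = 0.00762), and Hoxa10 and Hoxd8 were then the 2 Hox genes called, where 11.9% of all genes were. A block that paired each lung with the PT of the other mouse also called Hoxa10, so the call is not particular to the true pairing. Over the alternatives the adjusted p of Hoxa10 lay between 2.59e-05 and 0.877.

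Which section was left out changed the number of Hox genes called. Without lung A it was 1 (4.61% of all genes), without lung B 2, Hoxa10 and Hoxd8 (13.2%), and without PT B 8 (8.05%). Without PT A, which leaves the section of high background as the lone PT, it was 23 (34.5%). The lone section of a group is then assumed to vary like the other group. DESeq2 called 13 Hox genes, 12 of them lower in the lung, where it called 19.8% of all genes and 11.0% lower. Of the receptor genes, DESeq2 called 484 of 1198 lower (40.4%), and edgeR, after its filter, 33 of 373 (8.85%).

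**Figure D4:**
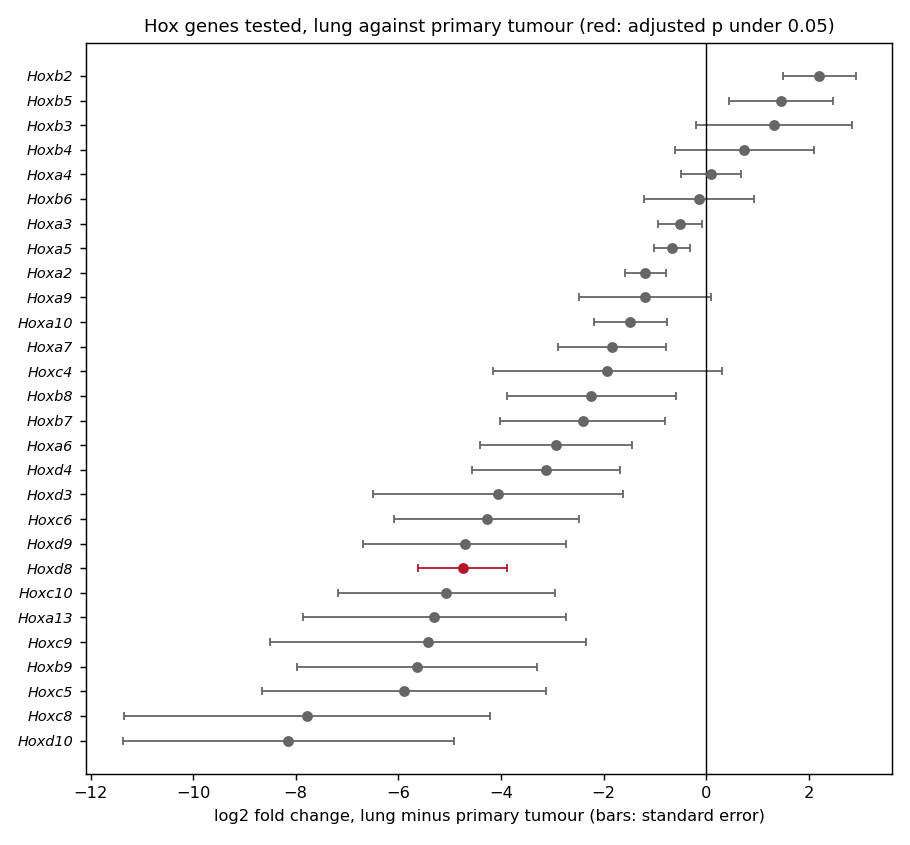
Fitted log2 fold change of 28 of the 29 Hox genes tested (edgeR, lung minus PT), with standard errors. Hoxd8 at -4.75 is the gene called; the widest bars belong to genes at or near 0 UMIs in a lung.

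The levels of the other genes above background in every section were lower in both lungs. Hoxa5 had the highest mean CPM, a rank not corrected for the number of probes per gene. It had 52.6 and 51.2 CPM in PTs A and B and 23.7 and 29.8 CPM in lungs A and B (log2 fold change -0.67, SE 0.35, edgeR adjusted p = 0.285). Hoxa2, a gene of the hindbrain and cranial neural crest, had 35.5 and 35.8 CPM in the PTs and 9.98 and 15.9 CPM in the lungs (log2 fold change -1.19, SE 0.39, edgeR adjusted p = 0.113). Hoxa3, a gene of thymus and parathyroid formation, had 21.9 and 24.2 CPM in the PTs and 10.2 and 16.6 CPM in the lungs (log2 fold change -0.50, SE 0.43, edgeR adjusted p = 0.542). None of the 3 passed the threshold, although their groups did not overlap.

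Hoxa4 and Hoxa7 stood between. Hoxa4 had 10.7 and 11.6 CPM in the PTs and 10.1 and 9.13 CPM in the lungs, slightly lower by CPM, while the fit, which rescales the libraries, gave 0.09 (SE 0.59, edgeR adjusted p = 0.952). Hoxa7 had 8.13 and 8.26 CPM in the PTs against 0.899 and 2.98 CPM in the lungs (log2 fold change -1.83, SE 1.06, edgeR adjusted p = 0.339). Over the whole section PT B was not above background for either gene.

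Of the 10 Hoxb genes, 6 had both PTs above both lungs and 3 (Hoxb2, Hoxb3 and Hoxb5) both lungs above both PTs. The shares were 46.7% and 17.2% of all genes and 90.9% and 0.0835% of the receptor genes. After its filter edgeR tested 8 of the 10 and called none of them, where it called 7.46% of all genes. Hoxb2, a hindbrain gene, had 3.10 CPM in PT A and 4.22 CPM in PT B, against 17.1 CPM in lung A and 9.46 CPM in lung B. The lungs lay above the PTs, 5.50-fold and 2.24-fold within the mice (log2 fold change 2.20, SE 0.71, edgeR adjusted p = 0.104). DESeq2 called Hoxb2 (adjusted p = 0.0145, in a range of 0.0112 to 0.877 over the alternatives for Hoxb2). So did edgeR with no filter, and edgeR with a block that paired each lung with the PT of the other mouse. Hoxb5, a gene of the lung mesenchyme and gut, had 1.63 and 4.78 CPM in the PTs and 8.63 and 5.03 CPM in the lungs (log2 fold change 1.45, SE 1.01, edgeR adjusted p = 0.440).

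Hoxb3 had 0.961 and 1.65 CPM in the PTs and 3.24 and 1.92 CPM in the lungs (log2 fold change 1.32, SE 1.52, edgeR adjusted p = 0.678). Hoxb4, a gene known from blood stem cells, had 0.813 and 4.50 CPM in the PTs and 4.59 and 2.22 CPM in the lungs, so its groups overlapped. Hoxb6 had 4.58 and 5.23 CPM in the PTs and 4.32 and 2.78 CPM in the lungs. All of Hoxb2 to Hoxb6 were above background in both lungs and none of them in PT B.

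The remaining tested members were Hoxa6, Hoxa13, Hoxc4, Hoxc5, Hoxc9, Hoxc10, Hoxd3 and Hoxd4. They had 13 to 71 UMIs in PT A and 16 to 96 in PT B, against 0 to 3 in lung A and 1 to 27 in lung B, with log2 fold changes from -5.89 (Hoxc5) to -1.93 (Hoxc4). edgeR called none of the 8, where it called 7.46% of all genes. DESeq2 called 2 (Hoxc5 and Hoxc10), where it called 19.8% of all genes. Hoxd4, with 71 and 64 UMIs in the PTs and 2 and 26 in the lungs, had the highest PT A count of the 8.

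Non-overlap itself was common. In 34 of 39 Hox genes both PTs lay above both lungs, against 46.7% of all genes with a UMI, but also against 90.9% of the receptor genes. In 3 Hox genes (Hoxb2, Hoxb3 and Hoxb5) both lungs lay above both PTs, against 17.2% of all genes with a UMI and 0.0835% of the receptor genes. The groups overlapped for Hoxb4 and for Hoxd11, which had 19 UMIs in PT B and 0 in the other sections.

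Of the body-site genes, the lung list held 12 genes, among them Hoxa2 to Hoxa5 and Hoxb2 to Hoxb8. It summed to 138 and 164 CPM in PTs A and B and to 93.8 and 95.9 CPM in lungs A and B. With the receptor level taken off, the list was left at 129 CPM in PT A against 91.0 in lung A. In mouse B it was then about equal, at 93.9 CPM in the PT against 93.8 in the lung. In the lungs, 10 of the 12 were above background in both sections, while 9 of the list were in PT A and 3 in PT B. Its median log2 fold change was -0.32, and 0 of 12 were called by edgeR, 2 of them (Hoxb2 and Hoxa2) under an unadjusted p of 0.05, and DESeq2 called Hoxb2, where 23.2% and 19.8% of all genes were. Hoxb7 had 1.92 and 5.69 CPM in the PTs and 0.450 and 0.694 CPM in the lungs, and Hoxb8 1.99 and 4.77 CPM against 0.360 and 0.794 CPM.

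The mammary and trunk list held Hoxc6, Hoxc8, Hoxa9, Hoxb9, Hoxd9 and Hoxd10, genes of the thoracic to lumbar body wall. It summed to 14.0 and 29.0 CPM in PTs A and B and to 1.62 and 2.51 CPM in lungs A and B, 8.68-fold and 11.5-fold lower. With the receptor level taken off, 9.63 CPM was left in PT A against 1.07 in lung A, but 0.0 CPM in PT B against 2.11 in lung B. The 6 skin markers (Krt5, Krt14, Krt1, Krt10, Lor and Trp63) summed to 139 and 52.6 CPM in the PTs (5 and 1 of 6 above background) and to 9.98 and 21.1 CPM in the lungs (1 and 4 of 6). The 5 smooth muscle markers, at 35.2 and 67.3 CPM in the PTs and 539 and 335 CPM in the lungs, and the 5 neutrophil markers, at 2386 and 10421 CPM against 74870 and 29817 CPM, went the other way. The part of these cells in the Hox levels was not tested. Hoxd9 had 5.54 and 5.33 CPM in the PTs, 0.360 CPM in lung A and 0 UMIs in lung B, which allows up to 0.0992 CPM there. The level in PT B was under the mean of its receptor genes, 7.82 CPM. Hoxc6 had 2.14 and 6.15 CPM in the PTs and 1 and 7 UMIs in the lungs. Hoxa9 had 2.36 and 7.16 CPM against 1.17 and 2.22 CPM.

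Hoxb9 had 23 and 45 UMIs in the PTs and 0 and 2 in the lungs. Hoxc8 (12 and 31 UMIs in the PTs) and Hoxd10 (19 and 37) had 0 UMIs in both lungs. Of the 6 genes, 3 (Hoxa9, Hoxc6 and Hoxd9) were above background in PT A and 0 in PT B, and 1 was in each lung. edgeR called 0 of the 6, with 4 under an unadjusted p of 0.05 (Hoxb9, Hoxc6, Hoxd9 and Hoxd10), and DESeq2 called those 4, where 23.2% of all genes were under that p and DESeq2 called 19.8% of all genes and 40.4% of the receptor genes lower.

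Whether Hox levels moved with carcinoma content inside the lung was asked by setting the quintile of lung spots with the highest share of 4T1 marker UMIs against the other spots of the same section. Hoxa10 had 8.32 CPM (18 UMIs, 95% exact Poisson interval 4.93 to 13.1) in these spots of lung A against 1.00 CPM in the others. In lung B it had 35.5 CPM (343 UMIs, 31.8 to 39.5) against 14.3 CPM. Hoxa10 was thus higher in the marker-rich spots of both lungs, 8.28-fold and 2.48-fold. These spots had 8.32 CPM in lung A beside 37.9 CPM in PT A, and 35.5 CPM in lung B beside 37.7 CPM in PT B.

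Hoxa5 had 37.9 against 20.3 CPM in lung A and 44.7 against 22.8 CPM in lung B. Hoxa2 had 18.5 against 7.93 CPM and 22.3 against 12.9 CPM. Hoxb5 had 6.01 against 9.26 CPM in lung A and 1.66 against 6.61 CPM in lung B. Of 13 Hox genes tested, 8 were higher in the marker-rich spots of both lungs (45.3% of all genes tested were) and 3 (Hoxb2, Hoxb3 and Hoxb5) were lower in both (29.6% of all).

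No gene was called in this contrast. edgeR called 0 of 13375 genes (0.0%) and 0 of 13 Hox genes, with 21 genes and 1 Hox gene (Hoxa5, log2 fold change 0.87, SE 0.29) under an unadjusted p of 0.05, and DESeq2 called 0. With the mouse as a block edgeR called 0, with 2635 genes and 3 Hox genes (Hoxa2, Hoxa5 and Hoxa10) under an unadjusted p of 0.05. The marker-rich spots were also deeper in lung B, with a median of 16578 UMIs against 8391, and shallower in lung A, with 5644 against 6751, and the part of depth in these levels was not tested.

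Across the 5 quintiles of lung B by 4T1 marker share, from lowest to highest, Hoxa10 had 3.84, 7.25, 12.5, 25.8 and 35.5 CPM. Hoxa5 had 12.9, 17.3, 20.5, 33.5 and 44.7 CPM. Hoxb2 had 15.6, 10.9, 9.88, 9.60 and 6.11 CPM. Hoxa4 had 9.59, 9.17, 10.6, 7.74 and 9.11 CPM. Hoxa10 and Hoxa5 were thus highest and Hoxb2 lowest in the spots richest in 4T1 markers and Hoxa4 had no such order, while the mean receptor level also declined from 0.271 to 0.123 CPM. In lung A, 1166 of 1697 spots had no 4T1 marker UMI, so its lower quintiles have no order.

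**Figure D5:**
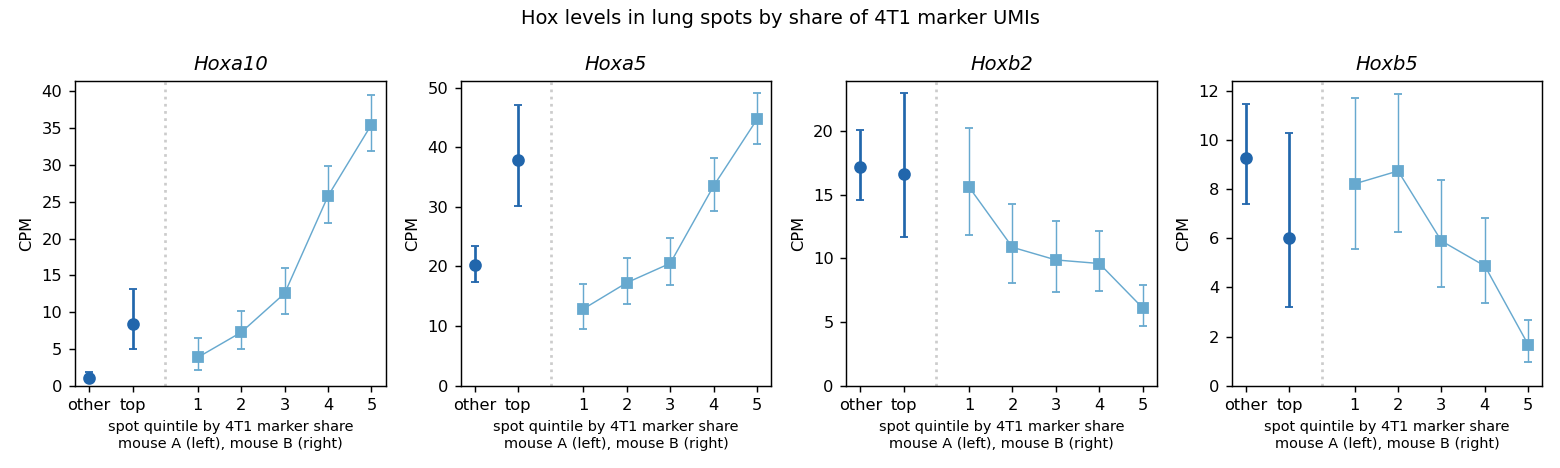
CPM of Hoxa10, Hoxa5, Hoxb2 and Hoxb5 in lung spots grouped by share of 4T1 marker UMIs, with the other 4 quintiles and the top quintile in lung A and the 5 quintiles from lowest to highest in lung B (95% exact Poisson intervals, counting error only). Hoxa10 goes from 3.84 to 35.5 CPM in lung B, and Hoxb2 from 15.6 to 6.11 CPM.

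Hoxd8 behaved otherwise. In the marker-rich spots of the lungs it had 0 UMIs (mouse A) and 1 UMI (mouse B). Inside the PTs it was lower in the quintile of spots richest in 4T1 markers, with 10.6 against 19.9 CPM in PT A and 9.94 against 18.0 CPM in PT B. In the quintile richest in endothelial markers (Pecam1, Cdh5, Kdr, Cldn5 and Vwf) it had 26.9 against 15.1 CPM in PT A and 17.9 against 13.8 CPM in PT B. Of these markers, Kdr and Vwf were not above background in PT B. The 5 markers summed to 207 and 139 CPM in PTs A and B and to 1588 and 788 CPM in lungs A and B, where Hoxd8 was low. The part of endothelial cells in the Hoxd8 level was not tested. These splits within PTs were looked at after other values were seen and carry no test, and in PT B the mean receptor level was also lower in the 4T1-rich quintile (3.05 CPM) than in the quintile poorest in these markers (22.5 CPM).

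Since positional Hox expression is known from fibroblasts, the quintile of spots richest in fibroblast markers (Col1a1, Col1a2, Col3a1, Dcn, Lum, Pdgfra and Pdgfrb) was set against the rest. In PT B, 3 of these 7 markers (Dcn, Lum and Pdgfrb) were not above background and 1161 of 2372 spots had no marker UMI, so the class rests on fewer markers there. In the PTs, Hoxd8 had 22.5 against 16.9 CPM (mouse A) and 16.8 against 13.9 CPM (mouse B). Hoxd9 had 7.22 against 5.16 CPM and 8.16 against 4.66 CPM. Of 35 Hox genes tested in the PTs, 9 were higher in the fibroblast-rich spots of both mice (26.3% of all genes tested were), 5 lower in both (25.8%) and 21 mixed. Over the whole of PT B, 4 Hox genes were above background, and neither Hoxd8 nor Hoxd9 was among them. For most of the 35 genes the direction in mouse B thus compares counts at background. With receptor background subtracted, 11 Hox genes passed the filter in this contrast.

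In the lungs Hoxa5 had 29.5 against 22.2 CPM (mouse A) and 37.1 against 27.8 CPM (mouse B). Hoxa10 had 5.21 against 1.70 CPM and 29.2 against 18.7 CPM. Of 13 Hox genes tested, 9 were higher in both (52.4% of all genes tested were) and 2 (Hoxa7 and Hoxb5) lower in both (22.3%). edgeR called 0 of 18781 genes (0.0%) in the PTs and 0 of 13332 (0.0%) in the lungs, with 15 and 228 genes and 0 and 0 Hox genes under an unadjusted p of 0.05, and DESeq2 called 0 and 16 genes, 0 of them Hox. With the mouse as a block edgeR called 74 genes in the PTs (0.394%) and 1025 in the lungs (7.69%), among them 0 Hox genes. Under an unadjusted p of 0.05 were then 2 of 35 Hox genes in the PTs, where 6.23% of all genes were. In the lungs 1 of 13 Hox genes was, where 26.7% of all genes were.

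The fibroblast contrast itself was compared between the organs as an interaction. edgeR called 0 of 19042 genes (0.0%) and 0 of 39 Hox genes, with 25 genes and 0 Hox genes under an unadjusted p of 0.05, and DESeq2 was not run for it. With the mouse as a block the count was also 0.

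Cofactors and regulators were followed by list in the same fit of lung against PT, in which 7.46% of all genes were called by edgeR, 11.9% with the block, 19.8% by DESeq2 and 23.2% under an unadjusted p of 0.05. Of 8 TALE homeodomain cofactors tested, which bind DNA beside Hox proteins, edgeR called 0 (unadjusted p under 0.05 for Pbx2 and Meis3) and 2 with the mouse as a block, Pbx2 and Pknox2, while DESeq2 called 1, Pbx2. Pbx2 had 51.1 and 39.5 CPM in PTs A and B and 136 and 74.4 CPM in lungs A and B (log2 fold change 1.55, SE 0.45, edgeR adjusted p = 0.0712, and 0.00561 with the block). Meis3 had 35.6 and 33.5 CPM in the PTs and 8.99 and 16.7 CPM in the lungs (log2 fold change -1.16, SE 0.41, edgeR adjusted p = 0.136). Pknox2 had 2.36 and 18.0 CPM in the PTs and 29.7 and 17.7 CPM in the lungs, so its groups overlapped. Its 196 UMIs in PT B were under the background cut-off of 203.4 there, so the overlap rests on a count at background.

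Of 21 Trithorax and Polycomb genes, whose products keep Hox clusters on or off, edgeR called 0 (unadjusted p under 0.05 for Cbx7, Eed and Rnf2) and 1 with the block, Cbx7 (adjusted p = 0.0161), which DESeq2 also called. Cbx7 had 27.1 and 22.9 CPM in the PTs and 73.4 and 40.4 CPM in the lungs. Eed had 52.3 and 42.6 CPM against 80.9 and 84.9 CPM, and Rnf2 had 80.4 and 88.4 CPM against 34.1 and 44.4 CPM.

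Retinoic acid is an inducer of anterior Hox genes, and of 12 genes of its synthesis, binding and breakdown edgeR called 1 higher and 1 lower in the lung. DESeq2, run without the filter, called these 2 and 1 gene that had not passed it, Cyp26a1, which was at background in every section. Aldh1a1, a retinaldehyde dehydrogenase, had 0.517 and 8.17 CPM in the PTs and 299 and 144 CPM in the lungs (log2 fold change 6.08, SE 1.04, edgeR adjusted p = 0.0107). Crabp1, a retinoic acid binding protein, had 29.0 and 4.22 CPM in the PTs and 2 UMIs in each lung (log2 fold change -6.94, SE 1.33, edgeR adjusted p = 0.0163). Its 46 UMIs in PT B were under the mean of the receptor genes there, so its level in PTs rests on PT A. Aldh1a2 had 0.961 and 6.15 CPM in the PTs and 3.24 and 20.6 CPM in the lungs, but its 13 and 67 UMIs in the PTs were under the cut-offs of 23 and 203.4 UMIs there. None of the 8 ParaHox and Evx genes passed the filter, and 8 of 8 were at background in every section, yet DESeq2, run without that filter, called 3 of them (Cdx2, Evx1 and Pdx1).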

How the data were processed

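The files deposited by the authors hold counts of UMIs for each gene in each spot from Space Ranger 2.0.0 (genome mm10), and spot positions on the slide grid (another unit, used to keep spots under tissue). The assay joins probe pairs on fixed sections, so a UMI is 1 ligated pair.

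Counts of the 9339 spots with over 200 genes were summed per section and given as CPM. Sums were tested in R 4.3.3 with edgeR 4.0.16 (TMM, filterByExpr, quasi-likelihood test, two-sided, Benjamini-Hochberg adjustment over all genes tested, threshold 0.05). DESeq2 1.42.0 was an alternative, beside other filters, spots and spot shares and each section left out in turn. Mice are called A and B. The replicate is the mouse, n = 2 per organ, and intervals are exact Poisson at 95%, covering counting error only. The limit that 0 UMIs allow is 3 counts per section. Comparisons are across sections for each gene, since probes per gene are not given in the sources used here.

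PT and lung of a mouse share 1 animal, which pairs them. Deviations of the same mouse from the group means had correlations of -0.293 (section sums), 0.798 (4T1 marker classes), 0.906 (fibroblast classes, PT) and 0.864 (fibroblast classes, lung). On simulated section sums of 18827 genes, edgeR recovered 19% of genes changed 2-fold and 96% of those changed 4-fold, and with the block 82% and 100%, with 5 unchanged genes called. The simulation gave both organs of a mouse the same shift, unlike the section sums with their correlation of -0.293. It also drew all sections from 1 mean profile, without the raised background of PT B. These rates, and the gain with the block, therefore need not hold for the real sections.

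The members and lists were chosen with earlier results of these data known. Genes described by name are Hox genes called with or without the block, the 10 with the highest mean CPM, the body-site lists and the 3 lowest p-values of each regulator list. Some other Hox genes are named with counts, fold changes or calls, as are regulators that DESeq2 alone called. Of the marker and regulator genes listed, 5 are not in the panel. The values of 1 member enter the counts and sums but are not reported here. No doublet caller was run and no cell-type makeup estimated. Python 3.11.15 with pandas 2.3.3 was used for sums and figures.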

Additional observations from a re-analysis of the deposited data

Results flagged for a closer look

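The 106 spots of PT A left out for having 200 genes or fewer held 7 Hox UMIs beside 64 receptor UMIs, among 19468 UMIs in all. This was picked up because it lies outside the spots compared and above the 3 counts that a count of 0 allows. Including these spots changed neither the number of Hox genes called between lung and PT (1) nor the number above background in PT A (17). The interaction test (edgeR) called 0 of 39 Hox genes for a fibroblast contrast that differed between the organs, and 0 of all 19042 genes. Under an unadjusted p of 0.05 were 0 Hox genes and 25 of all genes. Groups of 2 sections were too small to be screened for outlying samples.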

How the results depend on the processing

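Results were recomputed under 18 alternative settings, and 468 of the 538 values so obtained kept the direction and the side of the threshold. The calls between lung and PT moved most. From 1139 genes (1 Hox), edgeR called 1817 (2 Hox) with the replicate block, 2022 (2 Hox) with no filter, 504 without the shallowest quartile of spots, and 883 to 6604 (1 to 23 Hox) with each section left out. DESeq2 called 3827 (13 Hox, 1 higher and 12 lower). Chosen after seeing the data, taking off the receptor background left 91 (0 Hox), and the deepest quartile of spots gave 0 (0 Hox), with 1832 genes under an unadjusted p of 0.05. Pairing each lung with the PT of the other mouse in the replicate block gave 2565 (5 Hox, namely Hoxa2, Hoxa10, Hoxb2, Hoxd8 and Hoxd9). DESeq2 called 1707 genes higher and 2120 lower in the lung, against 963 and 176 by edgeR. The fibroblast contrast went from 0 to 74 genes in PTs and 1025 in lungs with the replicate block and to 16 in lungs with DESeq2, in each case with 0 Hox genes. The replicate block changed the Hox call of Hoxa10 alone. Classes leave 1 mouse when a replicate is left out, so no such test was made there.

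Directions turned for genes that were not called. Between lung and PT, Hoxa4 came to -0.52 in the deepest quartile, Hoxa9 to 0.91 with receptor background subtracted, and Hoxb6 to 0.10 in the deepest quartile, 0.042 with no filter and 0.95 with background subtracted, and ranged from -0.49 to 0.46 with each section left out. In the fibroblast contrast of PTs, Hoxa4 came to 0.17 (the tenth of spots richest in the markers) and 0.043 (the third of spots), Hoxa7 to 0.076 (the third of spots), Hoxa10 to 0.041 (the tenth) and Hoxb2 to -0.031 (the tenth) and -0.24 (background subtracted). In lungs Hoxa4 came to 0.11, 0.042 and 0.0027 (the tenth, the third and the replicate block).

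The log2 ratios of lung to PT of the paralogue groups were -0.56 and -0.90 (anterior), -1.29 and -1.39 (central) and -3.66 and -2.15 (posterior) in mice A and B. With background subtracted, mouse B came to 0.16, -0.28 and -0.48. Without the member with the most UMIs, anterior in mouse A came to -0.040, central to -1.49 and -2.17, and posterior in mouse B to -4.66. TMM-scaled CPM gave -0.17 (anterior, mouse A), -0.90 and -1.18 (central). With the 99th percentile, 11 Hox genes were above background in PT A (from 17), 13 in lung A (from 13), 3 in PT B (from 4, without Hoxa3) and 15 in lung B (from 19). The cause of these shifts was not tested. With the receptor background of PT B, Hoxb, Hoxc and Hoxd levels in PTs rest on PT A, except that of Hoxd8, which was above background in the deepest spots of PT B.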
